A study of Mus musculus with 12 samples.

Results

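The genes described here are the Frizzled receptors Fzd1 to Fzd8 and the co-receptors Lrp5 and Lrp6, 10 genes taken by symbol from a table of 56748 entries of scaled counts and a table of 55372 genes in TPM, a level per transcript length that sums to the same total in each library. Each symbol stood once in each table. The set was chosen by the values of knockout against control rods, in which Fzd3 was higher, so that contrast is given as a description, with no test. The family members Fzd9 and Fzd10 were not in the set and are named only where they differ. RNA was sequenced from 2-month-old littermate control mice, which carried the RiboTag allele and the i75-Rod-Cre transgene, and from knockout (KO) mice that carried the same 2 alleles on an Abca4-/- background. RiboTag is a tagged ribosomal protein that Cre switches on. Here Cre was driven by the rhodopsin promoter of rods, and messages on tagged ribosomes were pulled down (rod TRAP) from whole-retina lysate, the second fraction sequenced. Mice of all groups were perfused with cycloheximide, an inhibitor of translation that stalls ribosomes. There were 3 libraries in each of 4 groups, which are rod TRAP and retina of each genotype. How many mice went into a library is not given in the sources used here. The genes lie on chromosomes 5 (Fzd1), 11 (Fzd2), 14 (Fzd3), 7 (Fzd4), 1 (Fzd5 and Fzd7), 15 (Fzd6), 18 (Fzd8), 19 (Lrp5) and 6 (Lrp6) in the GENCODE M21 annotation of GRCm38.

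Frizzled proteins are serpentine receptors of the cell surface whose cysteine-rich outer domain binds Wnt ligands. With Lrp5 or Lrp6 as co-receptor they recruit Dishevelled, which stops the destruction of beta-catenin, and beta-catenin then acts with TCF/LEF factors in the nucleus. Without a co-receptor, some Frizzled proteins act in planar cell polarity, in which Fzd3 and Fzd6 are known for the guidance of axons and the alignment of cells. In the eye, Fzd4 with Lrp5 and the tetraspanin Tspan12 receives norrin, the Ndp product secreted by Müller glia, and is needed for the growth of retinal vessels, while Fzd5 is needed for the closure of the optic fissure.

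RefSeq promoter entries (GRCm38.p6) were found for 4 of the 10 genes. All 4 are shown. These genes stood at different places in rods. Fzd4 was higher in rod TRAP than in retina, Fzd5 did not pass the test between them, and Fzd7 and Fzd1 were nearly absent from rod TRAP. Each line gives 200 bases before the annotated start, 5′ to 3′ on the strand of the gene, with the last 50 bases before the start left out. Capitals mark GGGCGG or CCGCCC (the GC box of Sp factors), TAATCC or GGATTA (letters bound by photoreceptor homeodomain factors) and CTTTGA or TCAAAG (letters bound by TCF/LEF factors), searched on both strands.
Fzd4, chr7:89404116-89404315, plus strand: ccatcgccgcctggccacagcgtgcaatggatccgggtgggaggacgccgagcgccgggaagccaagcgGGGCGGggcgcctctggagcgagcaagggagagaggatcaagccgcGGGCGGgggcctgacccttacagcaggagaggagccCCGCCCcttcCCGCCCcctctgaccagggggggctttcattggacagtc
Fzd5, chr1:64737801-64738000, minus strand: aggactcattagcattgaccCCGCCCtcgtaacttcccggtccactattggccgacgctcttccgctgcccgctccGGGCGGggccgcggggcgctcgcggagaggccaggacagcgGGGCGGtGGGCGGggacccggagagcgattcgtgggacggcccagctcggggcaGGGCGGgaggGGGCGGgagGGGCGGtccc
Fzd7, chr1:59481897-59482096, plus strand: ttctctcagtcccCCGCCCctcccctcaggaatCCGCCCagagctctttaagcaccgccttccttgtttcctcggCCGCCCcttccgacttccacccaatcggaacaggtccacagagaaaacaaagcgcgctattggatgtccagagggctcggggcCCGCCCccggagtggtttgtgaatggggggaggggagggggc
Fzd1, chr5:4758267-4758466, minus strand: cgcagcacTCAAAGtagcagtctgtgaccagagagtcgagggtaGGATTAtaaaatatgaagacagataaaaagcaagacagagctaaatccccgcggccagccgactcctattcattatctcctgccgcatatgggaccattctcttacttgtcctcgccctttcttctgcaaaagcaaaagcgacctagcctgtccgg
The GC box letters stood 4 times in the Fzd4 window, 7 times in that of Fzd5, 4 times in that of Fzd7 and 0 times in that of Fzd1. Of all 32851 promoter windows of this length, 24.6% held them. The homeodomain letters stood once, in Fzd1, against 5.22% of all windows, and the TCF/LEF letters stood once, also in Fzd1, against 11.8%. The capitals of the 3 motifs did not overlap. GC content was 71.5% for Fzd4, 75.0% for Fzd5, 63.5% for Fzd7 and 49.0% for Fzd1, with a median of 51.5% over all windows. Matches are letters only and do not show that a factor binds there.

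Before the receptors were compared, the labels were checked. Abca4 had 61017, 53193 and 53533 scaled counts in control rod TRAP, but 195, 365 and 13156 in KO rod TRAP, so the library labelled KO replicate 3 held 23.5% of the control mean. In retina the library with this label held 21.3%, with 8124 scaled counts, against 153 and 366 in the other 2. These 2 libraries go against their label. Values of the KO groups include them unless stated, and the values without them stand beside most comparisons of the receptors in KO mice. Fzd9, Fzd10, the cell markers and the pathway counts between genotypes or for the interaction are given only with them. The 10 rod markers summed to between 192155 and 218188 TPM in rod TRAP and, for retina, between 83247 and 111644 TPM. All 10 were higher in control rod TRAP. Most markers of other cells were lower in rod TRAP than in retina, but few were at 0. Endothelial markers summed to between 3.2 and 7.2 TPM there and to between 39.0 and 112.3 TPM in retina, and Müller glia markers to between 90.5 and 142.4 TPM against between 2669.5 and 4988.3 TPM. Lens markers ranged from 18.6 to 26117.7 TPM among the retina libraries. Totals per library were set by the authors' scaling and lay between 17096515 and 17862326, so true depth is not shown by them.

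In rods, 3 receptors made up nearly all of the summed level of the 10 genes. Levels of different genes are set beside each other only as TPM. In control rod TRAP the level of Lrp6 was 32.7 ± 2.18 TPM, that of Fzd5 was 11.0 ± 1.00 TPM and that of Fzd4 was 7.23 ± 0.40 TPM (SD, n = 3 each). The libraries of these 3 genes did not overlap one another. The next gene was Lrp5 at 0.37 ± 0.06 TPM, and the other 6 lay between 0 and 0.30 TPM and overlapped their neighbours in the order. Fzd4, Fzd5 and Lrp6 together took 97.4% ± 0.11 of the summed TPM of the 10 genes in control rod TRAP, 94.9% ± 1.11 in KO rod TRAP, 63.8% ± 5.84 in control retina and 70.5% ± 7.25 in KO retina (SD, n = 3 each). Without the libraries labelled KO replicate 3 these shares were 94.3% and 70.5%. Fzd10, which is outside the 10, had 2.13 ± 1.01 TPM in control rod TRAP and 12.1 ± 0.62 TPM in control retina, above Lrp5 in both. The order in KO rod TRAP was the same at the top, with Lrp6 at 37.03 ± 1.504, Fzd5 at 11.4 ± 3.09 and Fzd4 at 8.23 ± 1.85 TPM, where Fzd5 and Fzd4 overlapped. Fzd3 came next there, at 2.10 ± 0.61 TPM, above every library of Lrp5. Without KO replicate 3 the means were 36.65 TPM for Lrp6, 10.15 for Fzd5, 7.75 for Fzd4 and 2.45 for Fzd3.

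Whole retina held a broader set. In control retina Fzd5 led at 15.97 ± 5.57 TPM and overlapped Lrp6 at 12.8 ± 3.22 TPM (SD, n = 3 each). Lrp5 followed at 5.07 ± 1.10 TPM, then Fzd4 at 4.43 ± 1.30, Fzd1 at 4.23 ± 0.91, Fzd6 at 2.90 ± 0.44, Fzd7 at 2.13 ± 0.51, Fzd8 at 1.73 ± 0.40, Fzd3 at 1.23 ± 0.49 and Fzd2 at 0.93 ± 0.12 TPM. From Lrp5 downward every gene overlapped the next. In KO retina Lrp6 (18.7 ± 4.03 TPM) and Fzd5 (18.1 ± 6.38 TPM) again led and overlapped, and Fzd2 was again the lowest at 0.60 ± 0.35 TPM. Without KO replicate 3 these means were 17.4 TPM for Lrp6, 15.35 for Fzd5 and 0.50 for Fzd2. Summed over the 10 genes, the level was 52.3 ± 1.498 TPM in control rod TRAP and 51.4 ± 10.1 TPM in control retina.

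**Figure D1:**
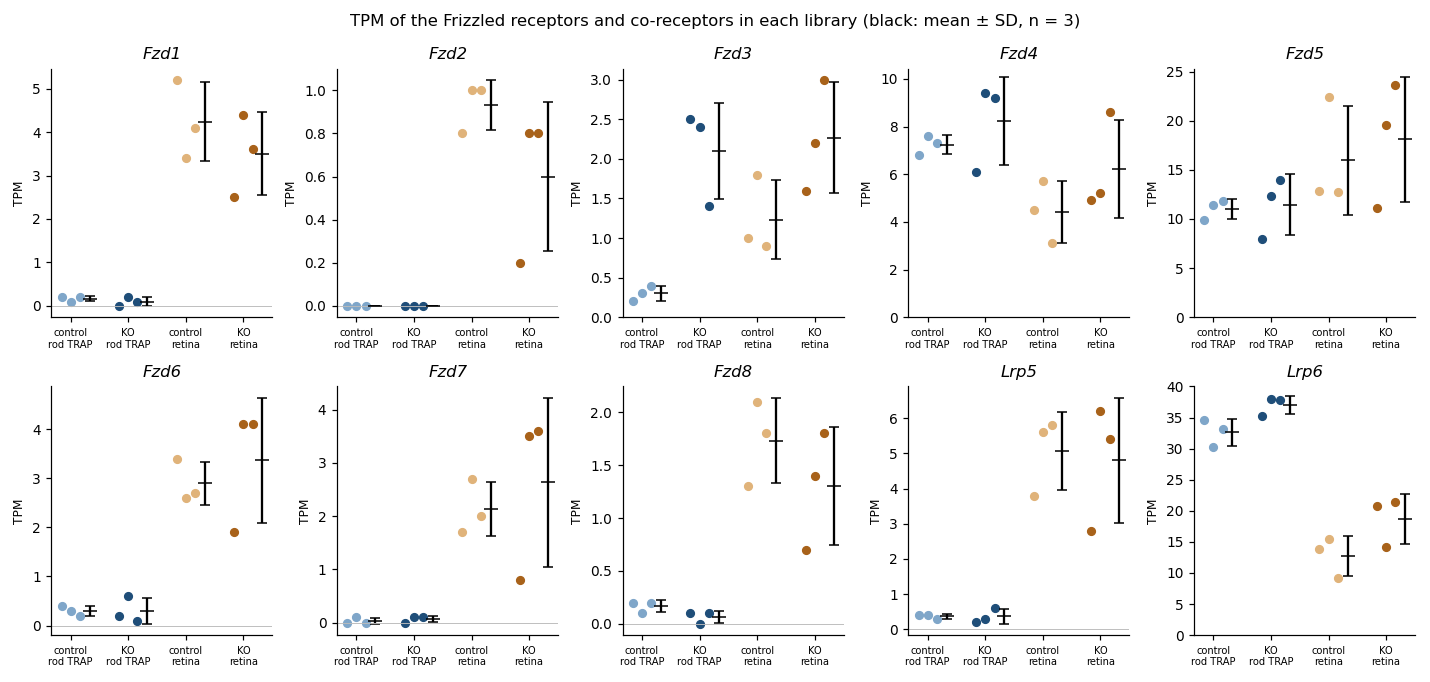
TPM of each of the 10 genes (one panel each, linear axes from 0) in the 12 libraries, with points for libraries 1 to 3 of a group and the mean ± SD in black. Lrp6, Fzd4 and Fzd5 are the genes with clear levels in rod TRAP, and Fzd3 joins them in KO rod TRAP at 1.4 to 2.5 TPM.

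The first comparison asked which receptor messages were on rod ribosomes relative to the whole retina, in control mice. Lrp6 and Fzd4 were higher in rod TRAP, Fzd5 did not pass the test, and Lrp5 was lower. Fzd1, Fzd2, Fzd6, Fzd7 and Fzd8 reached the minimum of 10 scaled counts in all 3 retina libraries but not in all 3 rod TRAP libraries. They entered the fit only because retina was high, so their direction was fixed and they are given as values, with no test. Of all 9 genes (Fzd3 is described apart) limma called 8, 2 higher and 6 lower, against 75.4% of the 16286 genes tested (36.6% higher and 38.8% lower). The lower calls other than that of Lrp5 are the genes that entered through retina. Libraries did not overlap for 8 of the 9 on the rescaled CPM scale, against 79.7% of all genes. Over the 4 genes at the minimum in every library, 2 were higher and 1 lower, against 46.8% and 23.9% of the 12094 genes at the minimum in every library, so the counts themselves say little about the family. A log2 difference is the change of log2(CPM + 0.5) after TMM scaling between libraries, and it understates the change of low genes.

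The co-receptors split. Lrp6 had 34.6, 30.3 and 33.1 TPM in control rod TRAP and 13.8, 15.4 and 9.2 TPM in control retina. All rod libraries were above all retina libraries, and the log2 difference was 1.83 (SE 0.16, limma adjusted p = 2.84e-07). Lrp5, its paralog, had 0.4, 0.4 and 0.3 TPM in control rod TRAP and 3.8, 5.6 and 5.8 TPM in control retina. It was thus low in each rod library, with a log2 difference of −2.95 (SE 0.21, limma adjusted p = 5.88e-08).

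Among the Frizzled genes, Fzd4 had 6.8, 7.6 and 7.3 TPM in control rod TRAP and 4.5, 5.7 and 3.1 TPM in control retina. These did not overlap, though the scaled counts did, and the log2 difference was 1.04 (SE 0.17, limma adjusted p = 9.50e-05). With the authors' scaling alone it was 0.41 (limma adjusted p = 0.0604, range over all alternatives 3.03e-06 to 0.0604), where the median of all genes moved from −0.03 to −0.62, so relative to that median Fzd4 stayed above. Fzd4 is best known from endothelial cells, whose 10 markers summed to 6.5 to 7.2 TPM in control rod TRAP. Which cells the rod TRAP reads of Fzd4 came from was not tested.

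The fractions of Fzd5 were not told apart by the test. It had 9.9, 11.4 and 11.8 TPM in control rod TRAP and 12.8, 22.4 and 12.7 TPM in control retina, retina replicate 2 standing above the other 2. Every rod library was below every retina library in TPM and in scaled counts, but not on the rescaled CPM scale of the test. The log2 difference was −0.20 (SE 0.16, limma adjusted p = 0.274). It passed the test without control retina replicate 3 (−0.40, limma adjusted p = 0.0356) and with the authors' scaling (−0.84, limma adjusted p = 0.00122), with a range over all alternatives of 0.00122 to 0.663.

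The remaining Frizzled genes had few scaled counts in rods. Fzd1 had 6, 4 and 6 scaled counts in control rod TRAP and 258, 154 and 206 in control retina. Fzd7 had 0, 3 and 0 against 96, 133 and 112, and Fzd2 had 0, 0 and 1 against 40, 38 and 45. For these 3 genes the rod values lie at or near 0. Fzd8 had 12, 7 and 13 against 99, 143 and 130, and Fzd6 had 13, 12 and 9 against 97, 116 and 102. Every rod library of the 5 genes was below every retina library. The fitted log2 differences, which depend on the pseudocount, were −3.42 for Fzd1, −3.30 for Fzd7, −2.24 for Fzd8, −2.16 for Fzd2 and −1.97 for Fzd6.

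Summed markers of the other retinal cells were also lower in rod TRAP. In control rod TRAP and control retina, bipolar markers summed to between 83.8 and 91.8 against between 812.4 and 1292.9 TPM, and amacrine markers to between 37.3 and 46.8 against between 371.1 and 596.7 TPM. Ganglion cell markers summed to between 10.6 and 16.6 against between 903 and 983.5 TPM. Single markers did not all follow the sums. Of the 8 bipolar markers 7 were called lower, but Prkca was higher (log2 difference 1.57, SE 0.17, limma adjusted p = 2.79e-06). Which cells the retina reads of Fzd1, Fzd2, Fzd6, Fzd7, Fzd8 and Lrp5 came from was not tested.

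In KO mice Lrp6 and Fzd4 were again higher in rod TRAP. Of the 9 genes, limma called 8, 2 higher and 6 lower, against 64.1% of the 16036 genes tested (30.4% higher and 33.7% lower), and 8 without both libraries labelled KO replicate 3. Libraries of the fractions did not overlap for 8 of the 9 on the rescaled CPM scale, Fzd5 being the exception, against 69.4% of all genes. Here 6 genes (Lrp5 and the 5 named above) reached the minimum in every retina library but not in every rod TRAP library. They are the 6 called lower, and as they entered through retina, their direction was fixed. Over the other 3, Lrp6, Fzd4 and Fzd5, 2 were higher and 0 lower, against 39.2% and 18.1% of the 12048 genes at the minimum in every library. Lrp6 had 35.3, 38.0 and 37.8 TPM in KO rod TRAP and 20.7, 14.1 and 21.4 TPM in KO retina, again without overlap. Its log2 difference was 1.16 (SE 0.19, limma adjusted p = 0.000267), and 1.27 (limma adjusted p = 0.00100) without both libraries labelled KO replicate 3, a check added after the values were seen (range over all alternatives 6.26e-07 to 0.0330). Fzd4 had 6.1, 9.4 and 9.2 TPM in KO rod TRAP and 4.9, 5.2 and 8.6 TPM in KO retina, which overlap on this scale. Its log2 difference on rescaled CPM was 0.66 (SE 0.19, limma adjusted p = 0.01003), and 0.71 (limma adjusted p = 0.0312) without the KO replicate 3 libraries. This call was lost without KO retina replicate 1 (0.57, limma adjusted p = 0.0525), on TPM (0.37, limma adjusted p = 0.338) and with the authors' scaling (0.13, limma adjusted p = 0.632, range over all alternatives 0.000826 to 0.632), where the median of all genes was −0.49.

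Fzd5 in KO mice lay at the threshold. It had 8.0, 12.3 and 14.0 TPM in KO rod TRAP and 11.1, 19.6 and 23.6 TPM in KO retina, each rod library below the retina library of its number. In scaled counts every rod library was below every retina library. The log2 difference was −0.42 (SE 0.19, limma adjusted p = 0.0687). Rod TRAP and retina libraries of a number were taken as paired, and with the replicate block the same difference passed (SE 0.13, limma adjusted p = 0.00680). It also passed without KO retina replicate 1 (−0.66, limma adjusted p = 0.0103), with a range over all alternatives of 0.00680 to 0.236. Without both KO replicate 3 libraries it was −0.43 (limma adjusted p = 0.155). The 6 genes that entered through retina had −3.51 (Fzd1), −3.02 (Lrp5), −2.99 (Fzd7), −2.35 (Fzd8), −2.09 (Fzd6) and −1.55 (Fzd2) on the log2 scale, and −3.53, −3.08, −2.79, −2.30, −1.70 and −1.46 without both KO replicate 3 libraries, given with no test.

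**Figure D2:**
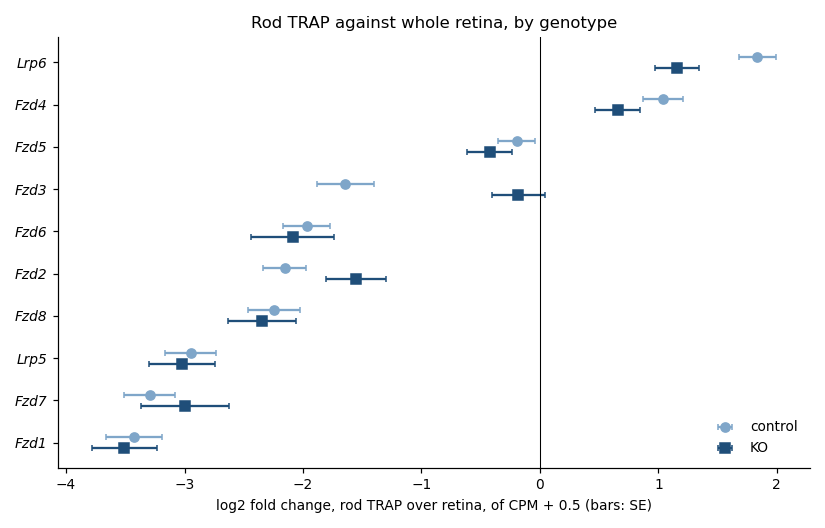
Log2 fold change of rod TRAP over retina (x axis, CPM + 0.5, bars are SE) for each gene in control (circles) and KO mice (squares). Lrp6 and Fzd4 lie above 0 in both genotypes, 6 genes lie at −1.55 or lower in both, and Fzd3 moves from −1.64 in control to −0.18 in KO mice.

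Fzd3, the receptor of axon guidance and planar cell polarity, was the gene for which the set was chosen. Its scaled counts were 23, 30 and 43 in control rod TRAP and 158, 279 and 165 in KO rod TRAP. Every KO library was above every control library, and the ratio of the means was 6.27. In the fit across all genes its log2 difference was 2.36 (SE 0.24), and 2.49 without the library labelled KO replicate 3. Leaving out each of the 6 libraries in turn gave 2.12 to 2.55. In this contrast 1.13% of the 13104 genes tested were called (0.733% higher and 0.397% lower), and for 17.6% the KO and control libraries did not overlap.

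In TPM, Fzd3 had 0.2, 0.3 and 0.4 TPM in control rod TRAP and 2.5, 2.4 and 1.4 TPM in KO rod TRAP. The tables rank the KO libraries differently. KO replicate 1 had 1.58 TPM for each 100 scaled counts of Fzd3, while the other 5 rod TRAP libraries had 0.848 to 1.00 and the 6 retina libraries 0.590 to 0.713. Which reads or transcript lengths lie behind these differences was not tested. In the GENCODE M21 annotation (GRCm38) Fzd3 overlaps the pseudogene Gm9086 on the opposite strand and the misc_RNA gene Gm27263 on the same strand. No scaled counts were found under either name.

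Scaled counts of Fzd3 were 162, 257 and 146 in control retina and 271, 331 and 421 in KO retina. The groups did not overlap, with a ratio of means of 1.81, a log2 difference of 0.85 (SE 0.23) and a limma adjusted p = 0.400 (range over all alternatives 0.109 to 0.937). Retina holds rods, and retina and rod TRAP libraries of a number appear to share mice, so this is no independent repeat. Within control mice Fzd3 was lower in rod TRAP than in retina (log2 difference −1.64, SE 0.24), and within KO mice the fractions overlapped (−0.18, SE 0.23, and 0.03 without the KO replicate 3 libraries). The interaction of genotype and fraction was 1.54 (SE 0.35) for Fzd3. These values use the libraries by which the gene was chosen and are given without a test.

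Markers of other cells also differed between the genotypes in rod TRAP. The 8 cone markers summed to between 563.8 and 697.5 TPM in KO and between 453.3 and 475.1 TPM in control rod TRAP. Of the 8, 1 passed the test as higher and 7 had an unadjusted p under 0.05, with a median of 0.42 on the log2 scale and none at 0. In retina the cone sum was lower in KO (1384.9 to 1866.3 TPM) than in control (1898.1 to 2215.7 TPM). Müller glia markers summed to between 100.6 and 142.4 TPM in KO and between 90.5 and 116.1 TPM in control rod TRAP, with 0 of 8 called. Endothelial markers summed to between 3.2 and 4.3 TPM in KO and between 6.5 and 7.2 TPM in control, with 4 of 10 tested and 1 called. That gene was Plvap, of fenestrated endothelium, which was lower in KO (−1.55, limma adjusted p = 0.0155, named after its value was seen). The other tested endothelial markers went both ways, with Pecam1 at −0.51, Kdr at 0.43 and Flt1 at 0.23, and none passed. Cdh5 was at 0 in every rod TRAP library of both genotypes, Cldn5 and Tie1 in every KO library and Emcn in every control library. Their part in the Fzd3 values was not tested.

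**Figure D3:**
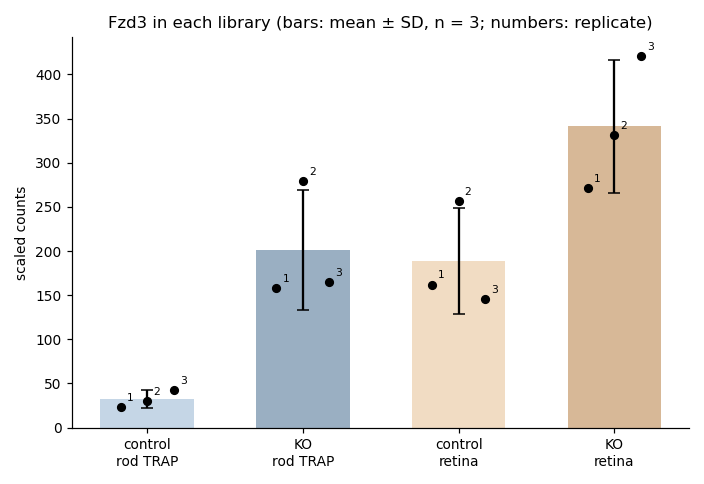
Scaled counts of Fzd3 (y axis, linear from 0) in the 4 groups, with bars for the mean ± SD and numbered points for the replicates. The control rod TRAP libraries lie at 23 to 43, well below the 158 to 279 of KO rod TRAP.

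The other rod receptors had smaller differences between genotypes. Log2 fold changes of KO over control rod TRAP were 0.22 (SE 0.11) for Fzd4, 0.04 (SE 0.13) for Fzd5, −0.02 (SE 0.09) for Lrp6, −0.16 (SE 0.23) for Lrp5 and −0.22 (SE 0.24) for Fzd6. For each of these 5 the KO and control libraries overlapped. Without the library labelled KO replicate 3 they were 0.16, −0.05, −0.06, −0.29 and −0.05 in the same order. Without KO replicate 1, Fzd4 was at 0.33, Fzd5 at 0.17, Lrp6 at 0.07 and Lrp5 at 0.003, so the sign of all but Fzd4 and Fzd6 turned with 1 library. As scaled counts, Lrp6 had 1113, 1072 and 1027 in control and 878, 1149 and 1153 in KO rod TRAP, and Fzd5 had 529, 649 and 618 against 481, 660 and 718. Fzd1, Fzd2, Fzd7 and Fzd8 had at most 13 scaled counts in any rod TRAP library, and too few libraries with 10 for the fit, so 6 of the 10 genes had a value.

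The next comparison asked whether the receptors differed between KO and control in whole retina. None of the 10 passed (0 of 10 by limma), against 0.106% of the 16964 genes tested (0.0884% higher and 0.0177% lower), and 3 had an unadjusted p under 0.05, where 2034 of all genes had one. No alternative of the limma fit called any of them. In bulk retina, fewer cells of a type and less RNA per cell cannot be told apart. Besides Fzd3, the largest positive values were those of Lrp6 and Fzd4. Scaled counts of Lrp6 were 536, 582 and 360 in control retina and 617, 586 and 986 in KO retina, with a log2 difference of 0.55 (SE 0.23, limma adjusted p = 0.400). Its groups did not overlap, but 1 KO library lay just above the control range. Fzd4 had 364, 414 and 250 against 421, 406 and 629, with 0.50 (SE 0.23, limma adjusted p = 0.417). For both genes the KO replicate 3 library was the highest, and without it Lrp6 was at 0.37 (limma adjusted p = 0.669) and Fzd4 at 0.36 (limma adjusted p = 0.682).

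Scaled counts of Fzd2 were 40, 38 and 45 in control retina and 10, 31 and 32 in KO retina. All KO libraries were lower, with a log2 difference of −0.68 (SE 0.29, limma adjusted p = 0.406). Fzd3, Lrp6 and Fzd2 were the 3 of 10 genes whose groups did not overlap, against 19.9% of all genes. Log2 fold changes of the others were −0.47 (SE 0.26) for Fzd8, −0.23 (SE 0.25) for Fzd1, −0.21 (SE 0.33) for Fzd6, −0.19 (SE 0.27) for Lrp5, 0.16 (SE 0.20) for Fzd5 and 0.07 (SE 0.37) for Fzd7, none of which passed. Without KO retina replicate 3 the 10 values lay between −0.83 (Fzd2) and 0.75 (Fzd3), and that of Fzd7 was −0.16.

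A single retina library stood low for most of the family. KO retina replicate 1 was the lowest of its group for 8 of the 10 genes, with Fzd4 and Lrp6 the exceptions. For Fzd7 it had 49 scaled counts against 183 and 178, for Fzd6 41 against 127 and 132, and for Lrp5 161 against 321 and 309. The same library was also lowest in summed Müller glia markers, at 2669.5 TPM against 4534.9 and 4277.4, and in bipolar markers, at 571.5 TPM against 1308.5 and 1289.5. Its rod sum was the highest of the group, at 110645 TPM against 93936 and 83247. Control retina replicate 1 was likewise lowest of its group in Müller glia (3039.5 TPM against 4779.7 and 4988.3) and bipolar markers (812.4 against 1286.1 and 1292.9). Without KO retina replicate 1 the values of Fzd6 (0.21), Fzd7 (0.57) and Lrp5 (0.04) were above 0, and that of Fzd2 was −0.36. Its part in these differences was not tested further.

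**Figure D4:**
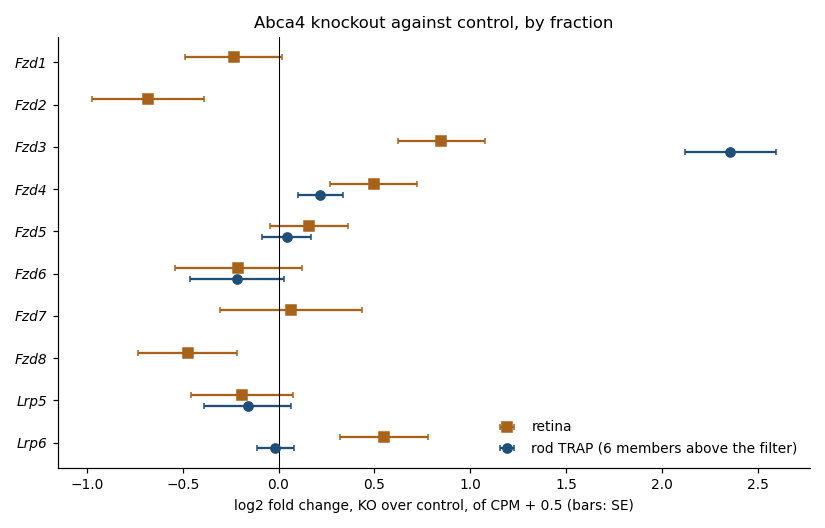
Log2 fold change of KO over control (x axis, CPM + 0.5, bars are SE) in retina for all 10 genes and in rod TRAP for the 6 with enough counts. Fzd3 stands at 2.36 in rod TRAP against 0.85 in retina, while the other rod TRAP values lie between −0.22 and 0.22.

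Of the 2 family members outside the set, Fzd10 had the larger difference in retina. Scaled counts were 468, 430 and 439 for control retina against 215, 292 and 260 for KO, with no overlap and a log2 difference of −0.79 (SE 0.18, limma adjusted p = 0.285). Fzd9 overlapped in retina, at 42, 68 and 91 scaled counts for control against 37, 75 and 71 for KO. In control rod TRAP Fzd10 was lower than in retina (−2.16, SE 0.25, limma adjusted p = 4.94e-06), and Fzd9 had 0, 1 and 0 scaled counts there.

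Whether the fraction difference depended on genotype was tested with an interaction term over all 12 libraries. None of the 9 genes besides Fzd3 passed (0 of 9 by limma), against 0.00579% of the 17273 genes tested. Fzd1, Fzd2, Fzd6, Fzd7 and Fzd8 missed the minimum in some rod TRAP library of each genotype, and Lrp5 in KO mice. With rod values this low their interaction rests mostly on retina, so it cannot show whether their fraction difference depended on genotype. The 0 calls therefore bear on Lrp6, Fzd4 and Fzd5. Of the 9, only Lrp6 had an unadjusted p under 0.05, at −0.59 (SE 0.26, limma adjusted p = 0.427). Its excess in rod TRAP was thus not shown to differ between genotypes. Fzd2 had 0.65 (SE 0.32), with 0, 0 and 1 scaled counts in rod TRAP of each genotype and −0.68 between genotypes in retina. The other 7 lay between −0.30 and 0.35. Without both libraries labelled KO replicate 3, Lrp6 was at −0.48 (limma adjusted p = 0.727, range over all alternatives 0.187 to 0.872) and Fzd3 at 1.75.

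The other genes of the pathway were counted in lists from ligands to targets. Between genotypes, limma called 0 of the 52 tested in rod TRAP, where 3 had an unadjusted p under 0.05, against 1.13% of all genes called and 1368 of 13104 with such a p. In retina it called 0 of 88, where 10 had such a p, against 0.106% called and 2034 of 16964. Between fractions many of these genes, like 5 of the receptors, reached the minimum in retina and not in rod TRAP. Counts are therefore given over the genes at the minimum in every library, of which 46.8% were higher and 23.9% lower in control rod TRAP over all genes.

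Among the Wnt ligands, secretion genes and antagonists few genes were left. Of the Wnt ligands 2 of 8 tested were at the minimum in every library, with 1 lower and 0 higher, of the secretion and norrin genes 1 of 4, which was lower, and of the secreted antagonists 1 of 6. That last gene was Dkk3, lower by the log2 value of −5.46 (SE 0.18, limma adjusted p = 1.97e-10). The norrin gene Ndp (−3.70) and Tspan12 (−2.17), which assists the norrin receptor, entered through retina, as did Wls (−3.66), the carrier of Wnt proteins, and the antagonists Sfrp1 (−4.22) and Frzb (−3.95). These are fitted log2 values with no test.

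Among targets and nuclear factors some genes were lower in control rod TRAP and none was higher. Of the feedback and target genes 3 of 7 were at the minimum in every library, 2 lower and 0 higher, and the third, Axin2, a target of beta-catenin, had 0.15 (limma adjusted p = 0.292). Of the TCF/LEF factors and co-activators 5 of 8 were, 3 lower and 0 higher. Of the other receptors 7 of 11 were, 2 higher and 3 lower.

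The cytoplasmic genes, the R-spondin module and the planar cell polarity genes were mostly measured in both fractions. All 19 cytoplasmic genes were at the minimum in every library, and 9 were higher and 5 lower, shares near those of all genes. Apc, the scaffold that binds beta-catenin for destruction, was at 3.19 and the tankyrases Tnks2 and Tnks, which mark Axin for breakdown, were at 2.50 and 2.42, while Apc2 was at −2.40. Of the R-spondin module, which sets how many Frizzled receptors stay on the surface, 5 of 6 were at the minimum in every library, 4 higher, among them Lgr4 (1.53) and Rspo2 (1.48), and 1 lower, Lgr5 (−2.34). Of the planar cell polarity genes 8 of 10 were, 3 higher, led by Daam1 (1.99), and 5 lower, led by Prickle2 (−2.89). The limma adjusted p of the genes named in this paragraph lay between 5.24e-09 and 4.89e-05.

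In KO mice, where 39.2% of all genes at the minimum in every library were higher and 18.1% lower, 8 of 19 cytoplasmic genes were higher and 5 lower, with Apc at 2.38 (SE 0.22, limma adjusted p = 3.82e-06). Without both KO replicate 3 libraries these counts were 8 and 3, against 28.3% and 14.9% of all genes. Of the R-spondin module 3 of 5 were higher and 1 lower, and 1 and 1 without those libraries. Of the planar cell polarity genes 3 of 8 were higher and 4 lower, and 2 and 4 without them. Differences between the genotypes were tested gene by gene with the interaction term, which called 0 of 88 genes, where 13 had an unadjusted p under 0.05. For genes below the minimum in rod TRAP this term rests mostly on retina and cannot decide.

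**Figure D5:**
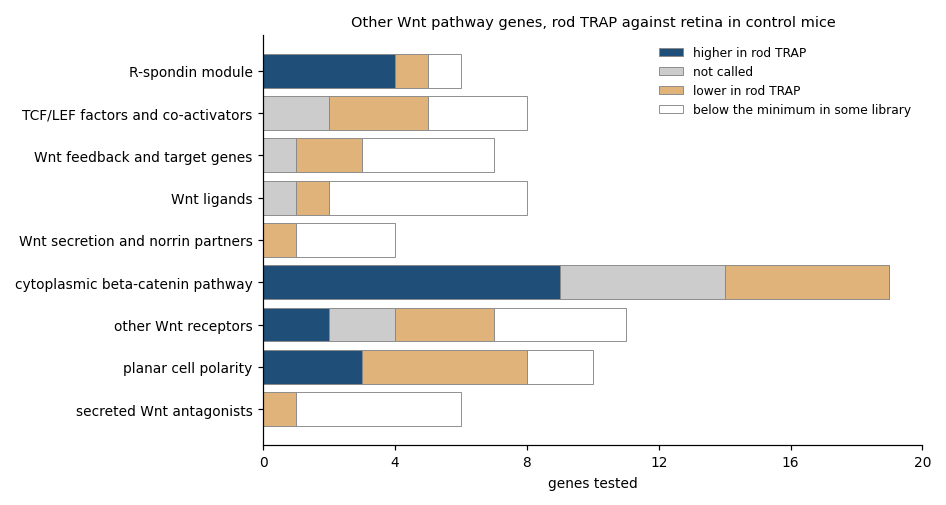
Number of genes tested (x axis) in each list of other Wnt pathway genes that were higher, lower or not called in rod TRAP against retina of control mice among those at the minimum in every library, with the remaining genes in white. The ligand, secretion and antagonist lists are mostly white, while all 19 cytoplasmic genes were measured in every library and 9 were higher.

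Genes with the pattern most like each receptor were found among 10825 genes by Pearson correlation over the 12 libraries, after the mean of each fraction was removed. For Fzd3 these were Nav2 (r = 0.959), Clic4 (r = 0.954) and Bcat1 (r = 0.947). Lrp6 had the closest partners, Msl2 (r = 0.995), Ubr3 (r = 0.994) and Ahctf1 (r = 0.993), and Fzd4 had Asxl2 (r = 0.988). Lower values were found for Fzd5, led by Dpysl2 (r = 0.910), and for Fzd1, led by Il17ra (r = 0.871). These correlations describe 12 libraries that share genotype, fraction and scaling, and they carry no test.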

How the data were processed

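Rod TRAP RNA (10 ng) and retina lysate RNA (5 ng) were sequenced after amplification for ultra-low input. Per the labels, the submitters' processing notes name CASAVA 1.8.2, HISAT2, DESeq2, edgeR and GRCm39, while the counter, the annotation and the use of strand are not given in the sources used here. The authors deposited a score, here called scaled count: totals agree within 0.00697% in rod TRAP and 0.00876% in retina, and low values show gaps and doubled values, so they are not raw counts. The second deposited table holds TPM to 1 decimal. No value column was left unmapped, and every entry had a gene name.

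Scaled counts were brought to TMM scale (trimmed mean of log ratios, trims 30% and 5%), expressed as log2(CPM + 0.5) and tested with limma 3.58.1 (trend, robust) in R 4.3.3, two-sided, with Benjamini-Hochberg adjustment over all genes with at least 10 scaled counts in at least 3 libraries. The scripts were tested on simulated data. Other steps used Python 3.11.15, numpy 2.4.6, pandas 2.3.3 and matplotlib 3.10.9. Promoter positions are on GRCm38.p6 and not on the authors' build, and true depth is unknown, so p-values measure the spread between libraries, which may be technical in part.

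Same-numbered rod TRAP and retina libraries deviated together within a genotype (r = 0.143 to 0.557 for the 6 pairs, over 11738 genes, each above 0.1), so fractions were taken as paired by the data, although KO rod TRAP replicate 2 correlated more with KO retina replicate 3 (r = 0.291) than with its own number (r = 0.200). Genotypes within a fraction were not paired. The main fits, the interaction among them, held no such block, so their p-values treat the libraries as independent. The replicate block was fitted as an alternative.

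The genes, the pathway lists and the markers were chosen with earlier results of these data known. Named are all 10 receptors, Fzd9, Fzd10, Abca4, the 3 most alike genes for some receptors, and from each list up to 4 called genes of largest change with a mean of at least 1 CPM in the higher group, of which not all are printed. Axin2, Prkca, Plvap and the other endothelial genes were named after their values were seen. Alternatives were the authors' scaling, median-of-ratios scaling, a pseudocount of 2, no filter, a filter of 50, log2(TPM + 1), no trend or robust step, a fit of all 12 libraries, the replicate block and leaving out each library, and, added after the data were seen, leaving out both libraries labelled KO replicate 3 a block within genotype and counts over genes at the minimum in every library.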

Additional observations from a re-analysis of the deposited data

How the results depend on the processing

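Of the 9 genes besides Fzd3, 8 were called between fractions in control mice and 7 to 9 under the alternatives, with 8 to 9 when each library was left out. These counts include Fzd1, Fzd2, Fzd6, Fzd7 and Fzd8, and in KO mice Lrp5, which entered through retina, so their direction was fixed. In KO mice 8 were called, but 5 with a filter of 50, which left Fzd2, Fzd6 and Fzd7 untested, and 4 on log2(TPM + 1), which left Fzd2, Fzd7 and Fzd8 untested and lost Fzd4. It was 8 without each library in turn, with Fzd4 lost and Fzd5 gained without KO retina replicate 1. In retina and in the interaction 0 were called under every alternative. For the genes that entered through retina the interaction cannot decide, because their rod TRAP values are too low. For the genotypes in rod TRAP, Fzd3 moved from 2.36 to 1.81 with a pseudocount of 2 and to 1.24 on log2(TPM + 1), and Lrp6 from −0.02 to 0.18 on log2(TPM + 1). Without each library Fzd5 ranged from −0.05 to 0.17, Lrp6 from −0.06 to 0.07 and Lrp5 from −0.29 to 0.003. In retina, signs turned for Fzd6, which had 0.12 on log2(TPM + 1) and −0.42 to 0.21 without each library, for Fzd7 (−0.20 to 0.57 without each library, where 3 of 6 fits were below 0: −0.20, −0.16 and −0.02) and for Lrp5 (−0.39 to 0.044, the latter without KO retina replicate 1). The cause was not tested. Because fractions were taken as paired, the replicate block was also fitted. It called Fzd5 in KO mice (−0.42, limma adjusted p = 0.00680) and changed no other call of the 10 genes. Other scalings moved fractions: with the authors' scaling 3415 genes were higher and 9549 lower in control rod TRAP, against 5968 and 6317, and 2282 and 7814 in KO, against 4872 and 5408, and on log2(TPM + 1) they were 3868 and 6297 in control and 2747 and 4621 in KO. Between genotypes in rod TRAP 148 genes were called, but 58 on TPM, 42 without trend and robust steps, 94 in the fit of 12 libraries and 30 to 621 without each library (621 without KO replicate 1, 30 to 36 without a control library). In retina 18 were called, against 33 with no filter, 9 with a filter of 50, 38 on TPM, 62 in the fit of 12 libraries, 46 with the replicate block and 1 to 37 without each library (1 without control replicate 3). The interaction called 1 gene, 3 on TPM and 2 without KO retina replicate 1. Without 1 library, the mean TPM of Fzd6 in KO rod TRAP ranged from 0.15 to 0.40 and that of Fzd2 in KO retina from 0.50 to 0.80.

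Limits: 3 libraries a group, deposited values without true depth, rod TRAP values near 0 for 6 of the genes, and 2 libraries whose Abca4 goes against their label.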
